A study of Mus musculus with 6 samples.

Results

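The ketone body enzymes Bdh1, Bdh2, Oxct1 and Acat1 were followed in RNA sequencing data from mouse hind leg muscle. They are 4 of 16759 genes in the deposited table, and all 4 were among the 10883 genes tested, which are those with a mean of at least 1 FPKM (fragments scaled by transcript length and library total). They were selected by gene symbol with the difference between the groups already known, and Bdh1 was named in that selection as the strongly reduced member. Their own values between the groups are therefore given as a description, with no test. The mice were C57BL/6J males aged 8 weeks at the start, with no transgene, and 3 libraries were made for each of the 2 groups. The exercise group (EX) ran on a treadmill in 60 min sessions, 5 of them each week over 6 weeks and 22 km in all, and was killed 24 h after the last session. The control group (Con) did no treadmill running. The mice were perfused with phosphate buffered saline, and intermuscular fat was taken off the hind leg muscles before RNA extraction. The sample is bulk tissue from the hind leg muscles, with no named batch, and which muscles each library held is not stated. The sources used here do not state that each library came from a different mouse, so p-values measure the spread between these libraries, which may be technical.

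Ketone bodies are made by the liver from fatty acids during fasting and long exercise, and are burned by heart, brain and skeletal muscle. In muscle mitochondria, beta-hydroxybutyrate is oxidised to acetoacetate by Bdh1, acetoacetate receives coenzyme A from succinyl-CoA through Oxct1, and the product is split by Acat1 into acetyl-CoA for the citric acid cycle. Bdh2 is a cytosolic dehydrogenase of the same broad family as Bdh1.

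Bdh1 was the member with the largest difference in relative terms, and its transcription start is annotated at more than 1 place. The promoter windows of Bdh1 are shown because this is the gene the description turns on, and that of Oxct1 because it is the most abundant member. Each window runs from 250 bases before to 50 bases after a RefSeq start site in GRCm38.p6, on the plus strand. RefSeq windows were matched for 3 of the 4 members. Capitals mark a GC box, read on the opposite strand.
Bdh1, chr16:31422047-31422346: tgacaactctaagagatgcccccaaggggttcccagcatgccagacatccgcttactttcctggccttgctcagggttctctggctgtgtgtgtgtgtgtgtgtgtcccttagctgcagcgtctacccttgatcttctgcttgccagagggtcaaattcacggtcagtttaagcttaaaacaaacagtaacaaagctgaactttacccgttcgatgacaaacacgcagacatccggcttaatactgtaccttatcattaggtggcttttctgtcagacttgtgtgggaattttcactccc
Bdh1, chr16:31428503-31428802: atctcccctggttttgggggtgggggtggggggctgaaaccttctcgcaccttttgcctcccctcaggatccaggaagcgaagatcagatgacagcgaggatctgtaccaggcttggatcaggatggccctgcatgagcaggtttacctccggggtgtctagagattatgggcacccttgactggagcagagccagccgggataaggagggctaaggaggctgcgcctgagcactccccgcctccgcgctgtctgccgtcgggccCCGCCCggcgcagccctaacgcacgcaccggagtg
Oxct1, chr15:4026178-4026477: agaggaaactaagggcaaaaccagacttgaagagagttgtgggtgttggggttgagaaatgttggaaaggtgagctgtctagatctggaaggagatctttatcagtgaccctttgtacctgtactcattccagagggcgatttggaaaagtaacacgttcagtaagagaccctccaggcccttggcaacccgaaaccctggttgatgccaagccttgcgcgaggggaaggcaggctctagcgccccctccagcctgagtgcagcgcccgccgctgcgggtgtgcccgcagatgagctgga

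The 2 Bdh1 windows differed in composition. The upstream window held 48.3% G and C with 7 CpG sites, and the downstream window 63.7% with 17 CpG sites. The Oxct1 window lay between them at 55.3% and 11 CpG sites, and the medians over all 32851 RefSeq windows of this length were 52.7% and 7. A GC box (GGGCGG) was found once, starting 15 bases after the start site of the downstream Bdh1 window, and 35.7% of all windows held one. The nuclear receptor half-site AGGTCA, present in 16.3% of all windows, the TATA box TATAAA, present in 13.6%, and CCAAT, present in 37.4%, were not found in these 3 windows on either strand. These are matches of letters in a short window. The deposited values are per gene and do not tell which Bdh1 start was used.

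Every EX library was deeper than every Con library. Total estimated counts were 13845362, 15465577 and 15585048 in the Con libraries and 16107254, 16240431 and 16080487 in the EX libraries. Over all genes tested, the quasi-likelihood test of edgeR, adjusted by the method of Benjamini and Hochberg, called 17.9% of genes at an adjusted p-value under 0.05, with 9.11% higher and 8.8% lower in EX. The tissue label held, since skeletal muscle markers such as Myh4, Acta1 and Ckm were abundant in every library. Of 8 such markers tested, 2 were called higher in EX, Acta1 and Pvalb, with log2 fold changes of 0.22 and 0.35. Another 2 were called lower, Mb and Myh1, at -0.14 and -0.09.

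Bdh1 (gene 71911), the mitochondrial beta-hydroxybutyrate dehydrogenase that opens ketone body oxidation in muscle, was lower in EX than in Con by 49.1%. Its counts scaled to a common library total after TMM normalization (CPM) were 18.4, 23.9 and 20.2 in Con and 11.7, 9.81 and 10.2 in EX. Every EX library lay below every Con library, and the gap between the groups was wider than the spread within either. The means were 20.8 ± 2.80 CPM in Con and 10.6 ± 1.01 CPM in EX (SD, n = 3 each), a ratio of 0.509. The log2 fold change was -0.98 with a standard error of 0.10, which put Bdh1 at rank 20 of 10883 genes counted from the most negative. These values rest on 256, 375 and 322 estimated counts in Con and 186, 154 and 161 in EX. The summed counts of 953 and 501 have exact Poisson intervals of 893 to 1015 and 458 to 547, which cover counting error only and are not scaled for depth. Counting alone would give a coefficient of variation of 5.61% in Con and 7.74% in EX, against 13.4% and 9.57% observed. In bulk muscle, fewer cells that express a gene and less of its RNA per cell cannot be told apart.

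Bdh2 (gene 69772), the cytosolic member, was close to the limit of what this depth can measure. Its CPM were 1.08, 0.827 and 0.564 in Con and 0.883, 1.15 and 0.953 in EX, from 9 to 18 counts in each library. The groups overlapped. The means were 0.822 ± 0.256 and 0.994 ± 0.136 CPM (SD, n = 3 each), with a log2 fold change of 0.29 and a standard error of 0.31. The counting intervals of the summed counts, 26.1 to 51.0 in Con and 34.5 to 62.5 in EX, overlap as well. They are on raw counts, not scaled for the greater depth of the EX libraries. Leaving out Con replicate 3 gave 0.07 and leaving out Con replicate 1 gave 0.51 on the log2 scale.

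Oxct1 (gene 67041) encodes the CoA transferase that activates acetoacetate and that hepatocytes lack, and its group means lay within 6% of each other. It had 413.8, 431.7 and 429.4 CPM in Con and 446.6, 454.4 and 445.9 CPM in EX. All EX libraries were above all Con libraries on this scale, but by little. The means were 425.0 ± 9.76 and 449.0 ± 4.75 CPM (SD, n = 3 each), a difference of 5.65%, with a log2 fold change of 0.08 and a standard error of 0.03. The direction depended on the scaling, with EX to Con ratios of 1.06 for CPM, 1.02 for FPKM and 0.991 for TPM (transcript abundance scaled by length and library sum), and the groups overlapped for FPKM and TPM.

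Acat1 (gene 110446) encodes the mitochondrial acetoacetyl-CoA thiolase, which also acts in isoleucine breakdown, and was slightly lower in EX. It had 214.9, 212.4 and 208.7 CPM in Con and 196.4, 192.7 and 187.5 CPM in EX. The groups did not overlap. The means were 212.0 ± 3.15 and 192.2 ± 4.47 CPM (SD, n = 3 each), a difference of -9.31%, with a log2 fold change of -0.14 and a standard error of 0.04. The ratio was 0.907 for CPM, 0.872 for FPKM and 0.851 for TPM, with EX below Con on each scale.

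**Figure D1:**
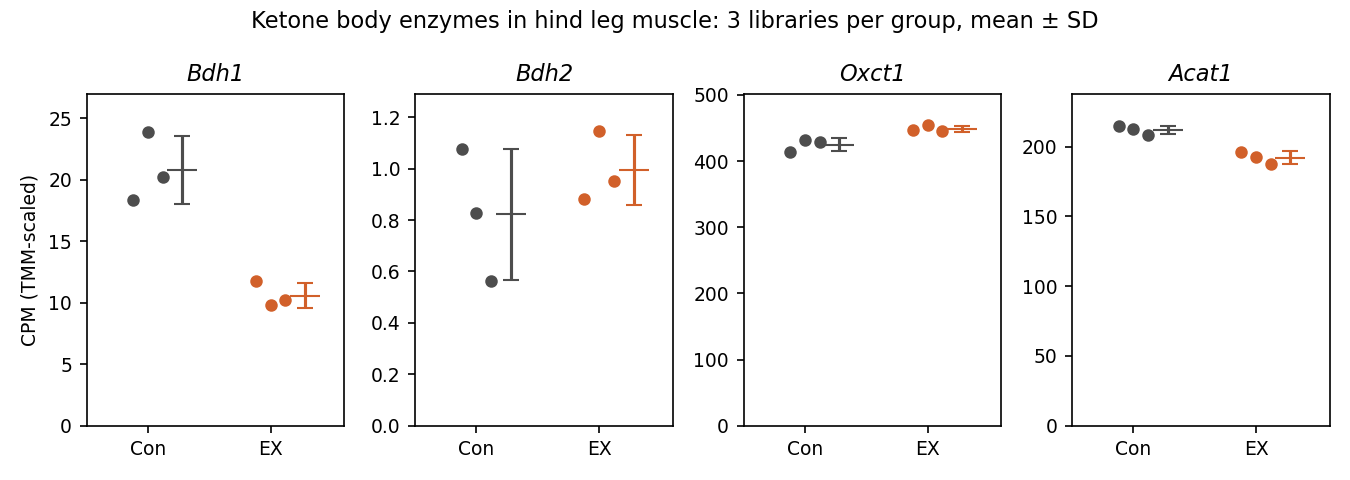
CPM after TMM scaling (vertical axis, from 0) of each enzyme in the 3 Con and 3 EX libraries (points), with mean ± SD beside them. The EX points of Bdh1 lie between 9.81 and 11.7 CPM, below the lowest Con point of 18.4 CPM, while those of Bdh2 are mixed with the Con points.

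In CPM, then, 2 of the 4 members lay below Con without overlap (Bdh1 and Acat1), 1 lay above (Oxct1), and Bdh2 overlapped. Among all genes tested, 16.9% lay below and 16.7% above without overlap, and nothing is read from the members' count, since they were selected on this contrast.

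The log2 fold changes were recomputed under 15 alternative settings, of which Bdh2 was too low for 1. For Bdh1 the log2 fold change was between -1.06 and -0.87 with each library left out in turn, and between -1.05 and -0.86 under the other settings. Acat1 stayed negative in each setting, from -0.23 to -0.12. Oxct1 was between 0.06 and 0.09 with each library left out, 0.02 in limma on log2(FPKM + 0.1) and -0.01 in limma on log2(TPM + 0.1).

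**Figure D2:**
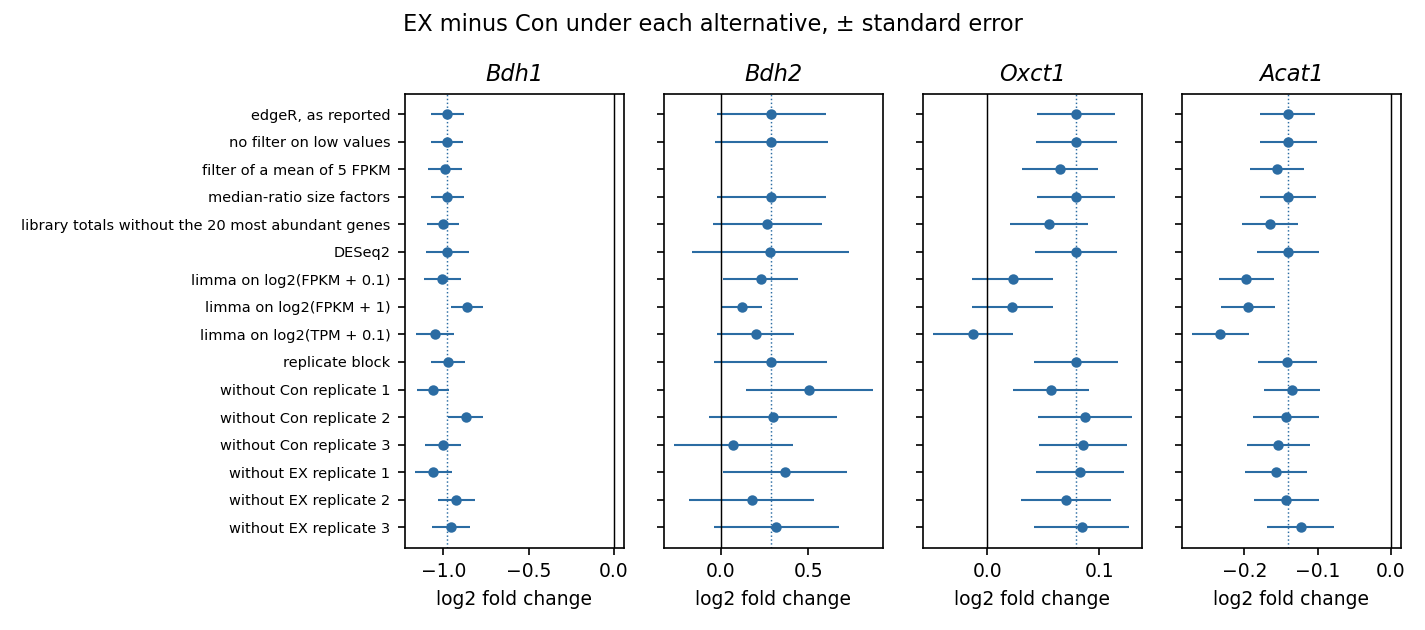
Log2 fold change, EX minus Con (horizontal axes, which differ between panels), of each enzyme under each setting, with its standard error as a bar, a solid line at 0 and a dotted line at the reported value. Bdh1 stays between -1.06 and -0.86, while Oxct1 reaches -0.01 with TPM. Bdh2 has no point under the filter of a mean of 5 FPKM, which it does not reach.

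Levels between genes were compared per length, in FPKM. The order was Oxct1, Acat1, Bdh1 and Bdh2 from highest to lowest in every library, and the ranges of neighbours in this order did not overlap in either group. Oxct1 had 131.8, 138.9 and 139.5 FPKM in Con and 139.3, 139.2 and 138.0 FPKM in EX, rank 552 among the genes tested. Acat1 had 70.9, 70.75 and 70.19 FPKM in Con and 63.45, 61.14 and 60.12 FPKM in EX, rank 1056. Bdh1 had 6.61, 8.68 and 7.42 FPKM in Con and 4.14, 3.40 and 3.58 FPKM in EX, rank 6836. Bdh2 had 1.31, 0.99 and 0.69 FPKM in Con and 1.03, 1.35 and 1.09 FPKM in EX, rank 10726. The first enzyme of mitochondrial ketone body oxidation was thus the scarcest transcript of its 3 steps in both groups.

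The balance between the steps differed between the groups. The level of Oxct1 was 16.0 to 19.9 times that of Bdh1 in the Con libraries and 33.6 to 40.9 times in the EX libraries. The level of Acat1 was 8.15 to 10.7 times that of Bdh1 in Con and 15.3 to 18.0 times in EX. The ratio of Oxct1 to Acat1 went from 1.86 to 1.99 in Con and from 2.20 to 2.30 in EX. These ratios within a library do not depend on the scaling between libraries. Bdh1 made up 3.14% to 3.96% of the summed FPKM of the 4 members in Con and 1.66% to 1.99% in EX, and Oxct1 62.6% to 64.0% and 67.0% to 68.1%. The level of Bdh1 was 5.05 to 10.8 times that of Bdh2 in Con and 2.52 to 4.02 times in EX, so Bdh1 remained above its cytosolic relative in every library.

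**Figure D3:**
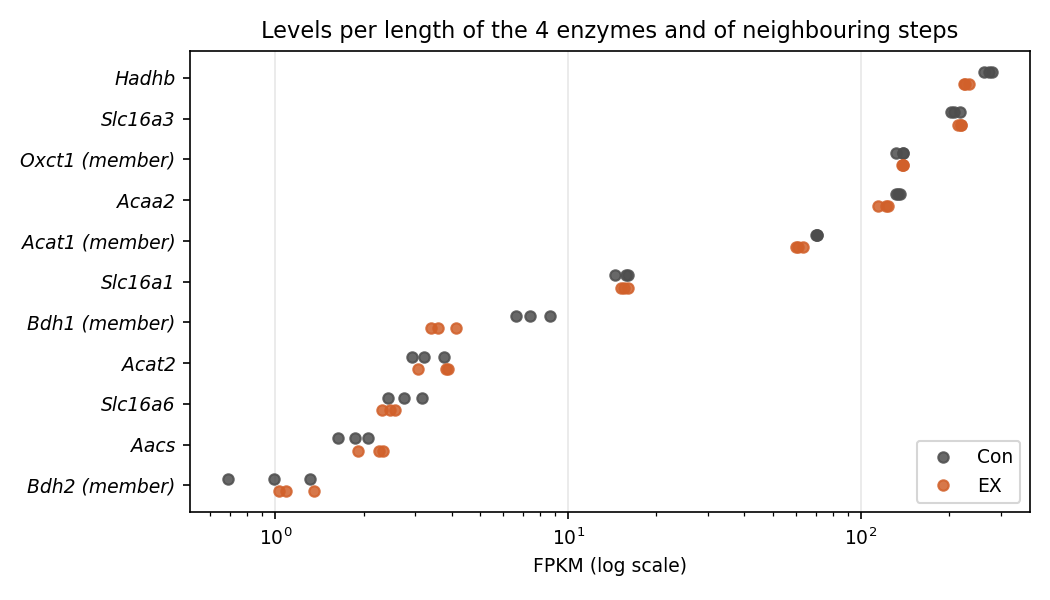
FPKM (horizontal log axis) in each Con and EX library (points) for the 4 enzymes, marked as members, and for 7 genes of activation, transport and related thiolase steps. Bdh1 shifts from 6.61 to 8.68 FPKM in Con to 3.40 to 4.14 FPKM in EX, while Oxct1 stays between 131.8 and 139.5 FPKM.

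The gene length behind the FPKM values can be worked back from the counts and totals. It came to 2784 to 2797 bases for Bdh1 over the 6 libraries, 3150 to 3163 for Oxct1, 3041 to 3055 for Acat1 and 821 to 856 for Bdh2. In GENCODE M21, which is annotated on GRCm38, the coding Bdh1 transcript nearest in length has 3122 bases and 7 exons, 325 to 338 bases more than that. The main coding transcripts of Oxct1 (3527 bases) and Acat1 (3405 bases) were longer by 364 to 377 and 350 to 364 bases. For Bdh1 the length in EX, 2789 to 2797 bases, lay within the Con range of 2784 to 2797, whereas for 14.8% of 8728 well counted genes the implied length varied by over 5% between libraries.

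Around the 4 enzymes, 68 genes of acetoacetate activation, transport, neighbouring reactions, regulation and mitochondrial content were listed, of which 55 were tested. The test called 9 of them, or 16.4% against 17.9% of all genes, with 6 higher and 3 lower in EX. This split depended on the scaling. It was 4 and 5 with library totals without the 20 most abundant genes, 2 and 4 in limma on log2(FPKM + 0.1), and 1 and 14 in limma on log2(TPM + 0.1). The median log2 fold change of the 55 genes was 0.00, and that of all genes tested was -0.00. The counts of single lists given below stand beside the same 17.9% of all genes.

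Acetoacetate can also be activated outside the mitochondrion. Aacs, the cytosolic synthetase that activates acetoacetate for lipid synthesis, had 5.88, 4.58 and 5.21 CPM in Con and 5.55, 6.88 and 6.60 CPM in EX, with a log2 fold change of 0.29 (adjusted p = 0.156).

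Of 4 tested genes for carriers of ketone bodies and lactate, with their partners, 1 passed the test. Slc16a1 (MCT1), the usual importer of ketone bodies, had 58.8, 63.6 and 64.2 CPM in Con and 64.9, 64.1 and 67.0 CPM in EX, with a log2 fold change of 0.07 (adjusted p = 0.349). Slc16a3 (MCT4), which exports lactate from glycolytic fibres, had 465.5, 425.8 and 434.6 CPM in Con and 464.7, 486.9 and 484.0 CPM in EX. It rose, with a log2 fold change of 0.12 (adjusted p = 0.0331), but the groups overlapped and the call was lost in 11 of 15 alternative settings, the replicate block among them (adjusted p = 0.0522). Their partner Bsg had a log2 fold change of 0.10 (adjusted p = 0.0873), which passed the test without Con replicate 1.

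Reactions next to Oxct1 and Acat1 held 1 thiolase that was lower and 1 succinyl-CoA enzyme that was higher in EX. Among 4 other thiolases tested, Hadhb fell by 0.20 on the log2 scale (adjusted p = 0.000256). Hadhb is the thiolase subunit of the trifunctional protein of fatty acid oxidation, and it had 478.7, 465.4 and 441.3 CPM in Con and 407.8, 401.2 and 399.3 CPM in EX. The other 3 thiolases tested did not pass in edgeR, among them Acaa2 at -0.10 (adjusted p = 0.107) and Acat2, the cytosolic paralogue of Acat1, at 0.17 (adjusted p = 0.419). Of 6 genes that make or use succinyl-CoA, the coenzyme A donor for Oxct1, Dlst of the oxoglutarate dehydrogenase complex rose by 0.16 in edgeR (adjusted p = 0.0025) and 5 did not pass. Other fits gave other counts, since limma on log2(FPKM + 0.1) and on log2(TPM + 0.1) each called 2 thiolases lower, and limma on log2(TPM + 0.1) called 3 succinyl-CoA enzymes lower and 0 higher. None of the 7 hydroxy acid dehydrogenases passed edgeR's test, with log2 fold changes from -0.07 to 0.19 and a smallest adjusted p-value of 0.0547. At an unadjusted p under 0.05 edgeR and DESeq2 each had 1 of them higher, Cbr4. At that level limma had 1 lower on log2(FPKM + 0.1) and 2 lower on log2(TPM + 0.1). After adjustment DESeq2 and limma on log2(FPKM + 0.1) called 0, and limma on log2(TPM + 0.1) called 1 lower, Hibadh.

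Acat1 also ends isoleucine breakdown. In the list of 13 genes of leucine and isoleucine breakdown, 10 had a negative log2 fold change with a median of -0.07, and 1 passed edgeR's test, Dld, which rose by 0.11 (adjusted p = 0.0283). In limma on log2(TPM + 0.1) the same list had 5 lower and 0 higher calls. Dld is a shared subunit of several dehydrogenase complexes, and its call was lost in 7 of 15 alternative settings.

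The largest differences among the 55 listed genes tested, by size of log2 fold change, were those of the regulators Ppara and Nrip1. Ppara, the fatty acid receptor that turns on fat oxidation and ketogenesis, had 19.2, 19.0 and 20.3 CPM in Con and 13.8, 13.4 and 13.8 CPM in EX. It fell by 0.52 on the log2 scale (SE 0.08, adjusted p = 1.4e-05). Esrrg, an orphan nuclear receptor of oxidative muscle, had 18.0, 18.4 and 18.2 CPM in Con and 15.2, 13.3 and 15.4 CPM in EX, and fell by 0.31 (SE 0.08, adjusted p = 0.0055). Nrip1, a corepressor of nuclear receptors, had 42.0, 43.8 and 42.6 CPM in Con and 60.1, 57.0 and 59.5 CPM in EX, and rose by 0.46 (SE 0.05, adjusted p = 1.0e-07). In each of these 3 genes the groups did not overlap, and each kept its call in every alternative that could be run for it. The call of Esrrg was the closest to the threshold, with an adjusted p of 0.0493 in edgeR without EX replicate 2. The other 7 regulators did not pass in edgeR, and limma on log2(TPM + 0.1) called 1 more of them lower. They include Ppargc1a at 0.10 (adjusted p = 0.252), Ppard at -0.15 (adjusted p = 0.113) and Esrra at 0.06 (adjusted p = 0.381).

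Of 10 markers of mitochondrial content tested, 2 passed edgeR's test, or 20.0% against 17.9% of all genes. Hspd1, a mitochondrial chaperonin, rose by 0.24 (adjusted p = 5.5e-05) and Cycs, cytochrome c, by 0.18 (adjusted p = 0.000834). None fell in edgeR, DESeq2, limma on log2(FPKM + 0.1) or limma on log2(TPM + 0.1), with 0 lower at an unadjusted p under 0.05 in edgeR and 1 in limma on log2(TPM + 0.1), which also called 0 higher. The median log2 fold change was 0.04. The calls of Cycs and Dlst were lost in the limma fits of FPKM and TPM, and that of Hspd1 in the fit of TPM (adjusted p = 0.0503).

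**Figure D4:**
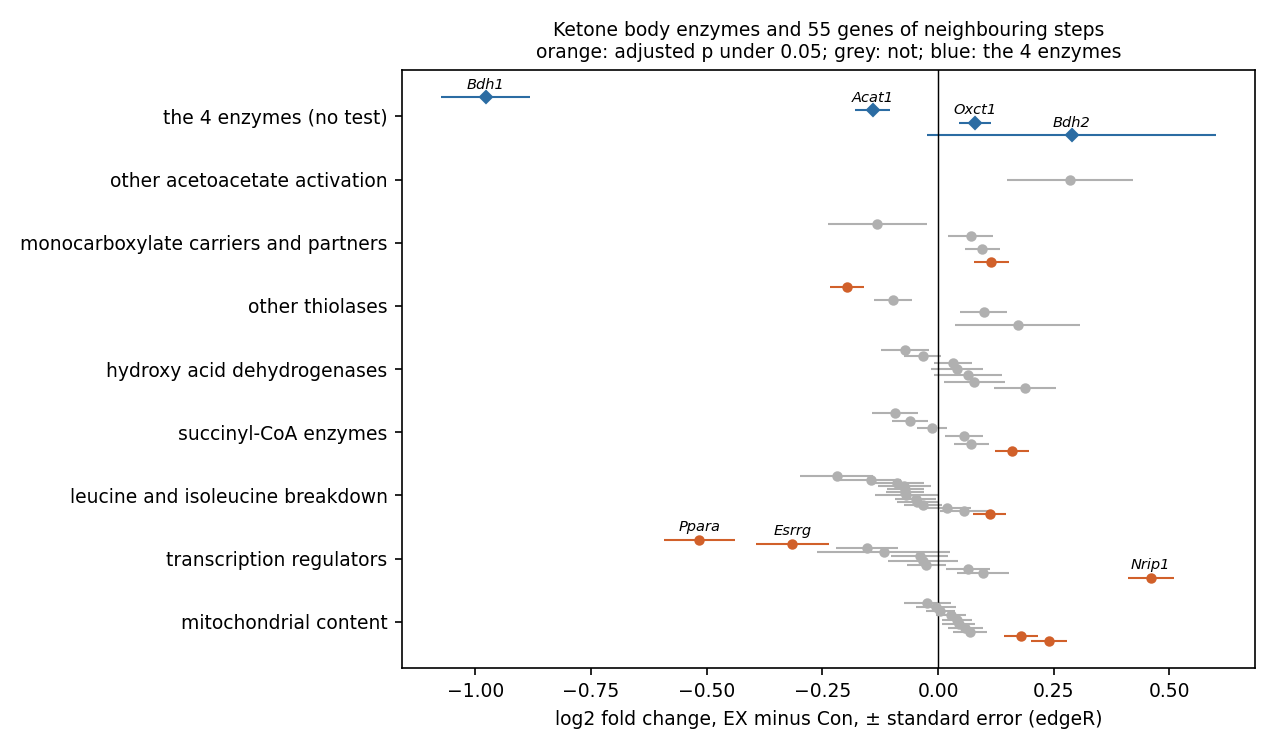
Log2 fold change, EX minus Con (horizontal axis), with its standard error as a bar, for the 4 enzymes (blue, no test) and the 55 listed genes tested, in rows by step; orange marks an adjusted p-value under 0.05. Bdh1 at -0.98 lies to the left of every listed gene plotted, of which Ppara at -0.52 comes closest.

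Markers of other cell types moved between the groups beside Bdh1. Of all genes tested, 9.11% were called higher and 8.8% lower in EX, and the counts of called markers stand beside these shares. Bdh1 is strongly expressed in liver, so liver transcripts are given first. Of 8 hepatocyte markers 7 were tested, 5 were lower in EX and Cyp2e1 was higher, and none was at 0. Their summed level went from 109.7 to 114.5 CPM in Con and from 74.2 to 80.1 CPM in EX, a ratio of 0.688. The single markers spread widely around that ratio, with EX to Con ratios of 0.496 for Ahsg, 0.501 for Fgb, 0.575 for Ttr, 0.596 for Alb and 1.32 for Cyp2e1, so that 2 of them lay below the 0.509 of Bdh1. Alb, the most abundant of them, had 67.2, 68.8 and 72.8 CPM in Con and 41.0, 43.4 and 40.1 CPM in EX.

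Of 3 Schwann cell markers tested 2 were lower, against 8.8% of all genes tested, with sums of 62.4 to 68.9 CPM in Con and 46.2 to 48.8 CPM in EX. Of 6 endothelial markers 3 were lower, with sums of 615 to 632 and 535 to 559 CPM. Markers of slow fibres were higher in 7 of 7, with sums of 99.4 to 104.7 and 351 to 377 CPM. Atp2a2 and Myl3 made up most of the Con sum, while the slow myosin Myh7 was near absent in Con, at 0.933, 0.891 and 1.19 CPM against 99.5, 110.6 and 96.7 CPM in EX. Mean levels of Tnni1, Tnnc1 and Myl2 were 0.402, 0.502 and 2.60 CPM in Con and 11.6, 14.7 and 28.7 CPM in EX. Myh7, Tnni1, Tnnc1 and Myl2 thus differed by far more than Bdh1, whereas Atp2a2 and Myl3 had smaller EX to Con ratios, of 2.19 and 1.32. Macrophage markers were higher in 5 of 6 tested, against 9.11% of all genes tested, with sums of 37.8 to 41.5 and 68.2 to 73.3 CPM. Of 5 adipocyte markers tested 3 were higher and 1, Car3, was lower, and the list's sum was 1235 to 1287 CPM in Con and 931 to 969 CPM in EX. Most of that sum was Car3, with means of 1033 and 717 CPM, so the sum follows Car3 and not the rest of the list. Fabp4, with means of 229 and 215 CPM, did not pass. Adipoq, Cidec and Retn rose, with EX to Con ratios of 2.32, 2.86 and 2.98. Plin1 and Lep were too low to be tested, and their EX libraries lay above Con, with means of 0.654 and 1.48 CPM and of 0.0663 and 0.550 CPM. Of 5 tendon markers tested 3 were higher, with sums of 171 to 187 and 245 to 262 CPM. Of 4 red blood cell markers 1 was higher, with sums of 199 to 216 and 217 to 236 CPM. In the brown adipocyte list only Cox8b was tested, and it did not pass. The list's sum, 110 to 121 and 106 to 128 CPM, was nearly all Cox8b, with means of 113.0 and 114.0 CPM. Mean levels were 0.339 and 0.338 CPM for Cidea and 0.418 and 0.0843 CPM for Elovl3, and Ucp1 was not in the deposited table. The part of these cell types in the difference of Bdh1 was not tested.

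**Figure D5:**
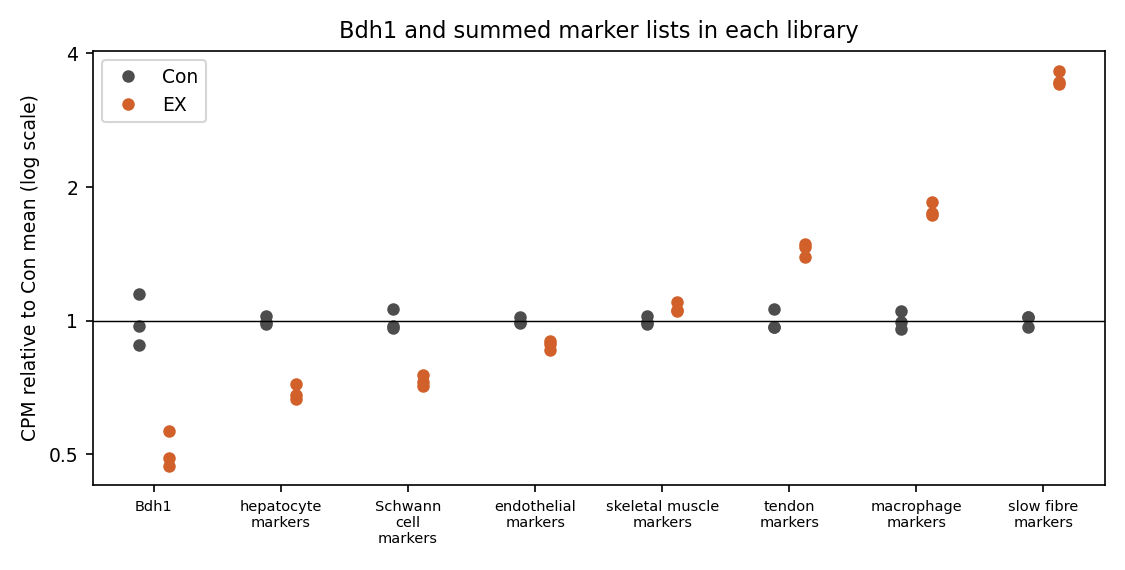
CPM relative to the Con mean (vertical log axis) in each library for Bdh1 and the sums of 7 marker lists, with Con points in grey and EX points in orange. The EX to Con ratios are 0.509 for Bdh1, 0.688 for the hepatocyte sum, 0.731 for the Schwann cell sum and 3.51 for the slow fibre sum, and single markers differ from their sums, with 0.496 for Ahsg of the hepatocyte list.

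The genes whose log2 CPM over the 6 libraries was most like that of Bdh1 were taken from 8071 genes with a mean of at least 10 CPM. They were Eda2r (Pearson's r 0.996), Acadl (0.995), Slc8b1 (0.995), Tbc1d1 (0.993) and Tnfsf10 (0.993). This likeness is a description over libraries of both groups, so it follows the difference between the groups as well as the spread within them. Their log2 fold changes were smaller than that of Bdh1, at -0.60 for Eda2r, -0.24 for Acadl, -0.21 for Slc8b1, -0.23 for Tbc1d1 and -0.29 for Tnfsf10. These differences are given with no test, since the genes were picked for their likeness to Bdh1 over the same libraries. Acadl, which starts the oxidation of long fatty acids, had 247.1, 262.5 and 250.1 CPM in Con and 219.6, 214.5 and 211.1 CPM in EX.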

How the data were processed

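RNA from hind leg muscle was sequenced by the authors in 3 Con and 3 EX libraries on the DNBseq platform (150 bp paired ends). The paper names GRCm39, HISAT and DESeq, while the submitters' processing notes list GRCm38.p6, cutadapt, featureCounts and MultiQC, so the build behind the deposited table is not settled. The table holds no coordinates. The deposited values per gene and library are estimated counts, FPKM and TPM, the latter 2 normalized by the authors. Estimated counts were deposited without normalization, and between 4.18% and 4.44% of values per library were not whole and were rounded. The strand setting of the counting is not given in the sources used here. The 6 columns of group means were not used.

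Log2 fold changes (EX minus Con) and adjusted p-values came from edgeR 4.0.16 (TMM, glmQLFit, glmQLFTest, Benjamini-Hochberg over the 10883 genes whose mean reached 1 FPKM) in R 4.3.3, at a threshold of 0.05. Standard errors are the absolute log2 fold change divided by the square root of the quasi-likelihood F. The procedure was tested on simulated counts. Alternatives were no filter or a mean of 5 FPKM, median-ratio size factors, totals without the 20 most abundant genes, DESeq2 1.42.0, limma 3.58.1 on log2(FPKM + 0.1), log2(FPKM + 1) and log2(TPM + 0.1), a replicate block, and each library left out. Fold changes on log2 scales with a pseudocount understate those of low genes.

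The members, the gene lists and the markers were chosen with earlier results of these data known. Named genes are the members, the listed genes called, those needed to describe a step of activation or transport, and the 5 most like Bdh1. Genes singled out beyond these were chosen after their values were seen. Labels give no batch. No pair of libraries within a group agreed within counting noise. Promoter windows are RefSeq's (GRCm38.p6) and transcripts GENCODE M21's. Some items are withheld for evaluation and are not reported here.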

Additional observations from a re-analysis of the deposited data

How the results depend on the processing

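The threshold call of Ppara, Nrip1, Esrrg and Hadhb and the direction of Bdh1, Bdh2 and Acat1 were kept in every alternative run for them. DESeq2 called 1228 genes against 1949. The split of higher and lower calls, 991 and 958, became 772 and 1259 with totals without the 20 most abundant genes, 411 and 1037 in limma on log2(FPKM + 0.1), 411 and 1032 on log2(FPKM + 1), and 340 and 1684 on log2(TPM + 0.1), where the median of all genes was -0.09. With TPM, 15 listed genes were called, 1 higher and 14 lower, against 9. The log2 fold change of Oxct1 was 0.0227 and 0.0225 in the FPKM fits and -0.0127 with TPM, and that of Acat1 was -0.20 in both FPKM fits and -0.23 with TPM. Slc16a1, close to 0 and not called, was -0.0190 with TPM. The cause of these shifts was not tested. Leaving out 1 library gave 1344 to 1857 called genes, 7 to 11 listed genes, -1.06 to -0.87 for Bdh1, 0.07 to 0.51 for Bdh2, 0.06 to 0.09 for Oxct1 and -0.16 to -0.12 for Acat1. Same-numbered libraries did not deviate together (correlations -0.10, -0.04 and 0.02), so no pairing by number was seen. With 3 libraries per group, a weak shared effect could go unseen. The replicate block called 1782 genes and 8 listed genes, losing Slc16a3, and gave -0.97 for Bdh1. Depth limits Bdh2 most, with at most 18 counts in a library.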
